A study of Mus musculus with 10 samples.

Results

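Ackr2 and Ackr3 encode atypical chemokine receptors, and they are 2 of the 12934 rows in the table of normalized counts from mouse glomeruli. Both were chosen by name, with earlier results of these data known, so their own levels are given as a description and without a test. The 10 libraries hold RNA of glomeruli, the capillary tufts where the kidney filters blood, from wildtype DBA/2J mice aged 17 weeks. In the diabetic Esm-1 group (n = 3), mice were injected hydrodynamically at 7 weeks of age with plasmids for mouse Esm-1 and for the Sleeping Beauty transposase, received streptozotocin from 8 weeks of age, and ate a 60% high-fat diet for the last 5 weeks. The diabetic saline group (n = 4) had the same streptozotocin and diet after a saline injection. The non-diabetic saline group (n = 3) had saline, vehicle in place of streptozotocin, and no diet stated. Diabetes and the high-fat diet therefore cannot be told apart, and no group received plasmids without Esm-1 or Esm-1 without diabetes.

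Atypical chemokine receptors bind chemokines, the small proteins that attract leukocytes, but do not couple to G proteins in the usual way. They recruit arrestins or cycle through endosomes, and so remove chemokines from the surroundings of the cell. Ackr2, also called D6, takes up inflammatory chemokines of the CC family and is best known from lymphatic endothelium, while Ackr3, also called CXCR7, takes up Cxcl12, Cxcl11 and the vasodilator peptide adrenomedullin.

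Each library held 3931712 to 11300629 reads, of which Rn45s, the ribosomal RNA precursor, with Lars2 and Mir6236 took 91.1% to 92.8%. This left 338549 to 962321 reads for every other gene, and 1 read was worth 0.62 to 1.77 normalized counts. Both receptors were therefore counted with few reads, 4 to 66 for Ackr2 and 4 to 45 for Ackr3 per library. The labels do not say whether each library is 1 mouse, so p-values measure only the spread between these libraries, which may be technical. Esm1 itself, the over-expressed gene, had 6.51, 3.81 and 0 normalized counts in diabetic Esm-1 replicates 1 to 3, against 3.20, 0.93, 1.72 and 1.77 in diabetic saline and 2.48, 1.81 and 0 in non-diabetic saline. These groups overlapped at 0 to 10 reads per library, so glomerular Esm1 does not check the labels. Hydrodynamic injection mainly reaches the liver.

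The promoter sequences of both receptors are shown because their group means ran in the same order, and shared control was not tested. They are the 250 bases before the RefSeq start of each gene in the GRCm38.p6 build, 5′ to 3′, with matches to 4 motifs in capitals. Ackr2 lies on chromosome 9 (chr9:121898105-121898354, plus strand) and Ackr3 on chromosome 1 (chr1:90203730-90203979, plus strand).
Ackr2: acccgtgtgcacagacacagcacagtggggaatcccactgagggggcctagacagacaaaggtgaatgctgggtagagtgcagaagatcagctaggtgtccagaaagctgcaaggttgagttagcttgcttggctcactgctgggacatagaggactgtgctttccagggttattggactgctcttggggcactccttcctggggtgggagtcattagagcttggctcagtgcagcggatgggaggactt
Ackr3: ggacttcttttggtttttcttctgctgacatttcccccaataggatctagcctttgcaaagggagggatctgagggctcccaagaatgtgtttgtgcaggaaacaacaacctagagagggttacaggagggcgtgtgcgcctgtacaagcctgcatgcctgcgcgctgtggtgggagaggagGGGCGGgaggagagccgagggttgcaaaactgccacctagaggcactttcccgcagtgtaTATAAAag
On both strands, the search was for the TATA box (TATAAA), the GC box (GGGCGG), the interferon-stimulated response element (GAAA, then any 2 bases, then GAAA) and the interferon-gamma-activated site (TTCNNNGAA). No match was found in the Ackr2 window. Ackr3 held the letters GGGCGG with their first base 68 bases before the start and the letters TATAAA with their first base 8 bases before it. These are letter matches, and whether either acts as a GC box or a TATA box was not tested. Of 32851 promoter windows of this length, 12.4% held the TATA box letters, 32.7% the GC box, 2.98% the interferon-stimulated response element and 7.02% the interferon-gamma-activated site.

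Ackr2 was lowest in diabetic Esm-1 glomeruli, intermediate in diabetic saline and highest in non-diabetic saline. Its normalized counts were 9.77, 3.81 and 13.2 in diabetic Esm-1 replicates 1 to 3 (15, 4 and 11 reads). In diabetic saline replicates 1 to 4 they were 29.6, 31.5, 15.5 and 23.0 (37, 34, 18 and 13 reads), and in non-diabetic saline replicates 1 to 3 they were 34.1, 59.9 and 44.9 (55, 66 and 36 reads). No library of a group reached into the next group, although the gap between diabetic Esm-1 replicate 3 and diabetic saline replicate 3 was far smaller than their counting intervals. The exact 95% Poisson interval, which covers counting error only, was 6.57 to 23.6 normalized counts for diabetic Esm-1 replicate 3 and 9.19 to 24.5 for diabetic saline replicate 3. Such an order of 3 groups without overlap was found in 1.02% of the 8239 genes that passed the filter of at least 10 normalized counts in at least 3 libraries. The gene was chosen with earlier results of these data known, so nothing is read from that share.

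Group means of Ackr2 were 8.92 ± 4.73 (SD, n = 3) normalized counts in diabetic Esm-1, 24.9 ± 7.23 (SD, n = 4) in the diabetic saline group and 46.3 ± 13.0 (SD, n = 3) in non-diabetic saline. On the scale of log2 of the normalized count plus 1, diabetic Esm-1 minus diabetic saline was -1.47 ± 0.52 (SE), or 2.78-fold lower, where the pooled SD between libraries was 0.62. The difference of diabetic saline minus non-diabetic saline was -0.88 ± 0.32, with a pooled SD of 0.43. Diabetic Esm-1 minus non-diabetic saline was -2.35 ± 0.52, or 5.11-fold lower. These 3 differences share libraries and are not independent of one another. In bulk glomeruli, fewer cells of a type and less RNA per cell cannot be told apart.

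Ackr3 also averaged lowest in diabetic Esm-1 and highest in non-diabetic saline, but only its non-diabetic libraries stood apart. It had 13.0, 7.63 and 4.79 normalized counts in diabetic Esm-1 replicates 1 to 3 (20, 8 and 4 reads) and 14.4, 19.4, 13.8 and 8.85 in diabetic saline replicates 1 to 4 (18, 21, 16 and 5 reads). In non-diabetic saline replicates 1 to 3 it had 26.6, 40.8 and 23.7 (43, 45 and 19 reads). All 7 diabetic libraries lay below the 3 non-diabetic ones, while diabetic Esm-1 replicate 1 lay within the range of diabetic saline.

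Means of Ackr3 were 8.48 ± 4.18 (SD, n = 3) in diabetic Esm-1, 14.1 ± 4.33 (SD, n = 4) in the diabetic saline group and 30.4 ± 9.16 (SD, n = 3) in non-diabetic saline. The log2 difference of diabetic saline minus non-diabetic saline was -1.06 ± 0.32 (SE), or 2.09-fold lower, with a pooled SD of 0.42. That of diabetic Esm-1 minus non-diabetic saline was -1.78 ± 0.44, or 3.44-fold lower. For diabetic Esm-1 minus diabetic saline it was -0.72 ± 0.43, where the pooled SD was 0.53 and the libraries overlapped. This last value was -0.41 without diabetic Esm-1 replicate 3 and -1.05 without its replicate 1.

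Without overlap and in every library, Ackr2 but not Ackr3 was lower in diabetic Esm-1 than in diabetic saline, as were 5.47% of tested genes, while 3.73% were higher in that sense. Both were lower in diabetic than in non-diabetic saline in that sense, as were 8.34% (8.19% were higher), and both were lower in diabetic Esm-1 than in non-diabetic saline, as were 17.4% (15.4% were higher). The pair was chosen with earlier results of these data known, so the shares are given only as background. Both passed the filter, and the diabetic saline libraries alone were enough for that, with 4 of 4 at 10 or more for Ackr2 and 3 of 4 for Ackr3.

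**Figure D1:**
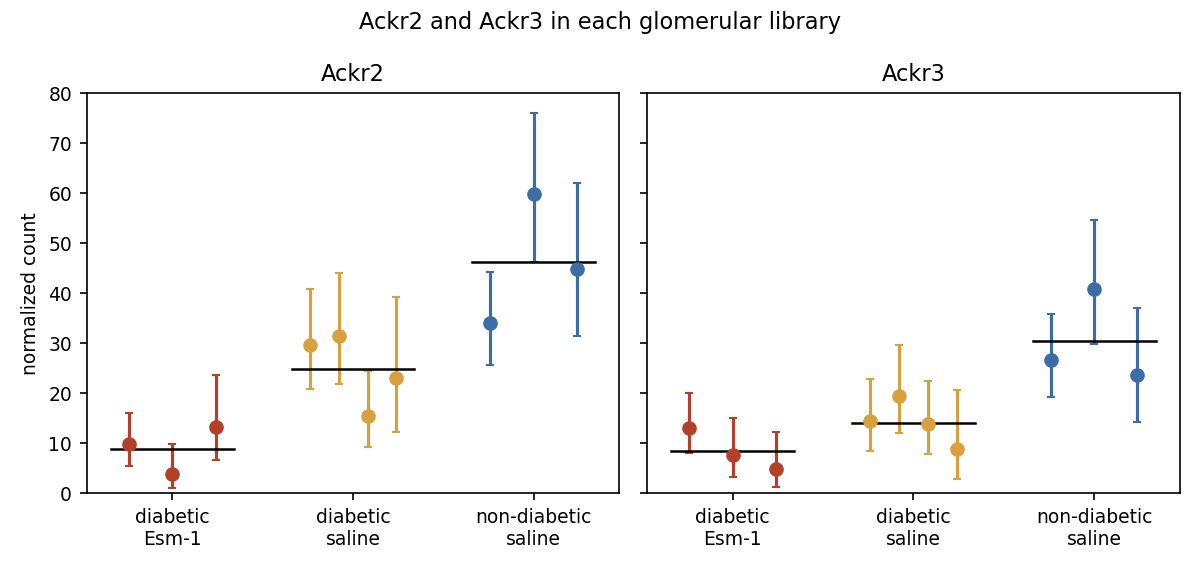
Normalized count of Ackr2 (left) and Ackr3 (right) in each library of the 3 groups; points are libraries in replicate order, vertical bars exact 95% Poisson intervals of the reads (counting error only), and black lines group means. Ackr2 lies at 3.81 to 13.2 in diabetic Esm-1, 15.5 to 31.5 in diabetic saline and 34.1 to 59.9 in non-diabetic saline, while the diabetic groups overlap for Ackr3.

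The members' levels can be set against each other per length. Per kilobase of annotated exon (3015 bases for Ackr2 and 3065 for Ackr3 in GENCODE M21, which is not the authors' annotation), Ackr2 had 2.96 ± 1.57 normalized counts in diabetic Esm-1, 8.26 ± 2.40 in diabetic saline and 15.3 ± 4.30 in non-diabetic saline (SD, n = 3, 4 and 3). Ackr3 had 2.77 ± 1.36, 4.61 ± 1.41 and 9.91 ± 2.99 in the same groups. Among 7932 tested genes with a length, these group means placed Ackr2 at percentile 13.0, 48.6 and 70.2, and Ackr3 at percentile 11.6, 26.4 and 56.2. Per kilobase, the ratio of Ackr2 to Ackr3 was 0.76, 0.51 and 2.80 in diabetic Esm-1 replicates 1 to 3, 1.14 to 2.64 in diabetic saline and 1.30 to 1.93 in non-diabetic saline. Ackr2 was the higher of the pair in all 7 saline libraries and the lower one in diabetic Esm-1 replicates 1 and 2, where the counts behind the ratio were 15 against 20 and 4 against 8 reads.

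On average, podocyte, endothelial and mesangial markers ran down the groups in the order of both receptors. In sum, 6 markers of the parietal epithelium of Bowman's capsule ran the other way. Their mean sums were 1250, 1131 and 924 normalized counts in diabetic Esm-1, diabetic saline and non-diabetic saline. Limma called 1 of the 6, higher in diabetic Esm-1 against non-diabetic saline, where 7.19% of tested genes were called higher. Cldn1 went against this list, at -0.18 ± 0.51 (SE) for diabetic Esm-1 minus diabetic saline and -0.28 ± 0.51 for diabetic saline minus non-diabetic saline. Over 39 podocyte, endothelial and mesangial markers, the mean log2 value of diabetic Esm-1 minus diabetic saline was -0.54, that of diabetic saline minus non-diabetic saline -0.37, and that of diabetic Esm-1 minus non-diabetic saline -0.91. Podocyte markers (15 of 15 listed genes present) summed to 2844 to 3902 normalized counts in diabetic Esm-1, 4023 to 5699 in diabetic saline and 6038 to 8398 in non-diabetic saline. Endothelial markers (15 of 15) summed to 1325 to 1668, 1785 to 2491 and 2605 to 3207 in that order of groups, and mesangial markers (9 of 10) to 682 to 866, 832 to 1252 and 996 to 1184. None of these 39 markers was at 0 in any library. Against non-diabetic saline, the limma test called 12 podocyte, 13 endothelial and 4 mesangial markers lower in diabetic Esm-1, where 8.11% of all tested genes were called lower. In diabetic saline against non-diabetic saline it called 5, 3 and 1 lower and 1 mesangial marker higher, where 1.81% of all tested genes were called lower and 3.73% higher.

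Measured relative to the 39 markers of the same library, Ackr2 had a difference of -0.94 ± 0.61 (SE) between diabetic Esm-1 and diabetic saline, -0.51 ± 0.32 between diabetic and non-diabetic saline and -1.45 ± 0.57 between diabetic Esm-1 and non-diabetic saline. For Ackr3 the same 3 values were -0.18 ± 0.32, -0.69 ± 0.24 and -0.87 ± 0.32. These are descriptions, as for the levels themselves. The part of cell composition in these differences was not tested.

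**Figure D2:**
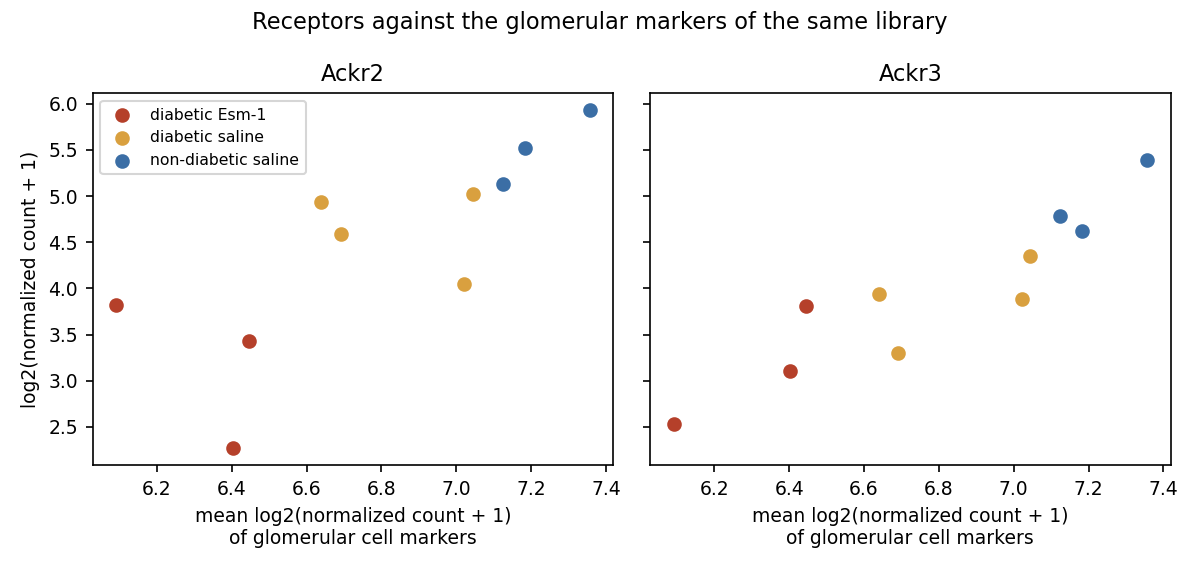
Log2 of the normalized count plus 1 of Ackr2 (left) and Ackr3 (right) against the mean of the same quantity over 39 podocyte, endothelial and mesangial markers; each point is 1 library, coloured by group. Diabetic Esm-1 libraries lie at the lower left (marker means 6.09 to 6.45) and non-diabetic saline at the upper right (7.12 to 7.36).

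Of 6 listed markers of lymphatic endothelium, where Ackr2 is best known, 3 had values (Prox1, Flt4 and Pdpn), and Lyve1 was not analysed here. The summed counts of these 3 were 102 to 117 in diabetic Esm-1, 132 to 192 in diabetic saline and 120 to 193 in non-diabetic saline. In limma, diabetic Esm-1 minus diabetic saline was 0.73 ± 0.50 (SE) for Prox1, -0.39 ± 0.23 for Flt4 and -0.81 ± 0.19 for Pdpn. None of these differences passed. The 3 did not share a direction, so their sum is not a measure of lymphatic endothelium. Prox1, the transcription factor that defines lymphatic endothelium, had 9.69 ± 2.72 (SD, n = 3), 6.07 ± 4.30 (SD, n = 4) and 5.86 ± 1.49 (SD, n = 3) in diabetic Esm-1, diabetic saline and non-diabetic saline, with overlapping libraries. Of the 3, only Pdpn, which podocytes also express, was called, lower by limma in diabetic Esm-1 against non-diabetic saline (log2 -0.87, SE 0.21, adjusted p = 0.00682). In that comparison 8.11% of all tested genes were called lower. Ptprc, the pan-leukocyte marker CD45, was low, with 1.91 to 8.46 normalized counts in diabetic Esm-1, 2.58 to 7.08 in diabetic saline and 0 to 4.33 in non-diabetic saline. Csf1r and Cd14, the 2 myeloid markers that could be tested, were higher. Their mean log2 value was 5.07 in diabetic Esm-1, 5.20 in diabetic saline and 4.99 in non-diabetic saline. Myeloid markers (9 of 12) summed to 109 to 144.6, 119 to 162 and 97.0 to 123, and the 1 lymphocyte marker of 10 with values, Cd3e, to 0 to 10.49, 0 to 5.55 and 9.97 to 22.3, in the order diabetic Esm-1, diabetic saline and non-diabetic saline. Proximal tubule markers (9 of 9) summed to 806 to 1397 in diabetic Esm-1, 459 to 1002 in diabetic saline and 536 to 1705 in non-diabetic saline, and markers of the parietal epithelium of Bowman's capsule (6 of 6) to 1159.5 to 1362, 993 to 1240 and 638 to 1114. Their part in the differences of Ackr2 and Ackr3 was not tested.

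Of the other atypical receptors, Ccrl2 and Gpr182 had values, and they went different ways, while Ackr1 and Ackr4 were not analysed here. Ccrl2 presents the chemoattractant chemerin rather than scavenging it, and its normalized counts were 16.9, 14.3 and 19.2 in diabetic Esm-1, 19.998, 30.5, 26.7 and 21.2 in diabetic saline and 7.43, 13.6 and 13.7 in non-diabetic saline. It rose in diabetic saline against non-diabetic saline by 1.05 ± 0.29 on the log2 scale (limma with Benjamini-Hochberg adjustment, adjusted p = 0.0349), where 3.73% of tested genes rose. This call ended when diabetic saline replicate 2 or 3 was left out (limma, adjusted p of 0.0961 or 0.0909), or replicate 1 of non-diabetic saline (0.174), and DESeq2 gave an adjusted p of 0.0546 and limma with no filter 0.0521. Gpr182, an endothelial scavenging receptor for chemokines, had 5.21, 3.81 and 5.99 in diabetic Esm-1, 6.40, 13.9, 8.61 and 10.6 in diabetic saline and 9.91, 18.1 and 9.97 in non-diabetic saline. Its limma difference of diabetic Esm-1 minus non-diabetic saline was -1.15 ± 0.44 (adjusted p = 0.0816). Those libraries did not overlap, as in 17.4% of tested genes in that direction. The difference passed in limma without the intensity trend (adjusted p = 0.0366). Gpr182 reached 10 normalized counts in 0 diabetic Esm-1 libraries, 2 of diabetic saline and 1 of non-diabetic saline. It thus passed the filter only through the saline groups, and with no filter the limma adjusted p was 0.0914.

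Among ligands of Ackr2, Ccl2 was the only one of 10 listed chemokines with enough reads to test. Ccl2 attracts monocytes and is one of the CC chemokines that Ackr2 degrades. It had 29.3, 19.1 and 28.7 normalized counts in diabetic Esm-1, 13.6, 6.48, 24.98 and 10.6 in diabetic saline and 3.10, 1.81 and 8.73 in non-diabetic saline. Against non-diabetic saline it rose in diabetic Esm-1 by 2.44 ± 0.48 on the log2 scale, 5.44-fold (limma, adjusted p = 0.00147, and 0.000112 to 0.0150 over the alternatives), where 7.19% of tested genes rose. Ccl2 reached 10 normalized counts in 3 libraries of each diabetic group and in none of the non-diabetic ones, so it passed the filter only through the groups where it was high, and with no filter the limma adjusted p was 0.000829. Diabetic saline minus non-diabetic saline was 1.48 ± 0.45 (limma, adjusted p = 0.0551), and this passed when diabetic saline replicate 2 was left out (adjusted p = 0.0239) or replicate 3 of non-diabetic saline (0.0124), and in edgeR (adjusted p = 0.0329) and DESeq2 (0.0345). The 3 group means thus stood in the reverse order of those of Ackr2. So did those of Cxcl2 and Cxcl16, which are not listed as ligands of Ackr2. Between diabetic Esm-1 and diabetic saline the libraries of Ccl2 overlapped, and the difference of 0.96 ± 0.45 did not pass (limma, adjusted p = 0.439).

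The other Ackr2 ligands with values, Ccl3, Ccl4, Ccl5 and Ccl7, were too low to test. Ccl5, which attracts T cells and monocytes, had 8, 6 and 2 reads in diabetic Esm-1, 12, 6, 2 and 10 in diabetic saline and 3, 1 and 2 in non-diabetic saline. Ccl3 had at most 7 reads in a library, Ccl4 at most 3 and Ccl7 at most 4, with the groups overlapping in each. Ccl8, Ccl11, Ccl12, Ccl17 and Ccl22 were not analysed here.

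The ligands of Ackr3 did not move together: Cxcl11 and Mif were higher in diabetic saline, adrenomedullin was lower, and Cxcl12 passed in neither direction. Cxcl11, an interferon-induced chemokine that attracts activated T cells, had 24, 11 and 9 reads in diabetic Esm-1, 18, 45, 47 and 5 in diabetic saline and 1, 2 and 3 in non-diabetic saline. Its summed reads per unit of depth were 7.55 times as high in diabetic Esm-1 as in non-diabetic saline (exact conditional Poisson interval 3.20 to 21.7, counting error only), and its limma adjusted p was 0.00715. In diabetic saline against non-diabetic saline the limma adjusted p was 0.000609. Cxcl11 too passed the filter only through the diabetic groups, and with no filter the limma adjusted p was 0.00491 in diabetic Esm-1 and 0.000188 in diabetic saline, both against non-diabetic saline. Between diabetic Esm-1 and diabetic saline the log2 difference was -0.80 ± 0.50 (limma, adjusted p = 0.604).

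Cxcl12, the main chemokine ligand of Ackr3, which podocytes are known to make, had 8.46, 15.3 and 5.99 normalized counts in diabetic Esm-1, 10.4, 13.0, 14.6 and 12.4 in diabetic saline and 14.2, 12.7 and 6.23 in non-diabetic saline. These groups overlapped, and the 3 limma differences lay between -0.40 and 0.24 (adjusted p = 0.745, 0.798 and 0.842). Mif, a cytokine reported to bind CXCR7 in human cells, had 17.3 ± 3.30 (SD, n = 3) in diabetic Esm-1, 20.7 ± 5.71 (SD, n = 4) in the diabetic saline group and 9.05 ± 2.96 (SD, n = 3) in non-diabetic saline. It rose in diabetic saline by 1.11 ± 0.31 on the log2 scale (limma, adjusted p = 0.0407), a call that ended when replicate 1, 2 or 3 of diabetic saline was left out (adjusted p of 0.0664, 0.107 or 0.121) or replicate 1 or 2 of non-diabetic saline (0.136 or 0.1437), and with no filter on low values (0.0579). In diabetic Esm-1 its difference from non-diabetic saline was 0.89 ± 0.34 (limma, adjusted p = 0.0807, and 0.0461 with replicate 3 of non-diabetic saline left out).

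Adrenomedullin fell in both diabetic groups. Adm encodes this vasodilator peptide, which acts through the receptor Calcrl with its partners Ramp2 and Ramp3 and which Ackr3 removes. It had 134, 62.0 and 63.4 normalized counts in diabetic Esm-1, 141.6, 142.5, 134 and 95.6 in diabetic saline and 191, 297 and 207 in non-diabetic saline. No diabetic library reached the non-diabetic ones, while diabetic Esm-1 replicate 1 lay within the range of diabetic saline, the same arrangement as for Ackr3. Without overlap, 8.34% of tested genes were lower in diabetic saline and 17.4% in diabetic Esm-1, each against non-diabetic saline. A link between Adm and Ackr3 was not tested. Relative to non-diabetic saline it fell by 1.48 on the log2 scale in diabetic Esm-1 (SE 0.25, 2.79-fold, limma adjusted p = 0.000472), where 8.11% of tested genes fell, and this held in each alternative (adjusted p up to 0.0166). In diabetic saline it fell by 0.84 (SE 0.23, limma adjusted p = 0.0365), where 1.81% of tested genes fell, but leaving out any 1 of the saline libraries other than diabetic saline replicate 2 ended that call (adjusted p = 0.0525 to 0.175), as did limma without the intensity trend (0.165). Diabetic Esm-1 minus diabetic saline was -0.64 ± 0.23 (limma, adjusted p = 0.279).

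The receptor side of the adrenomedullin system did not pass in any comparison. Calcrl had 39.7, 32.4 and 40.7 normalized counts in diabetic Esm-1, 36.8, 61.1, 43.9 and 35.4 in diabetic saline and 41.5, 62.6 and 47.4 in non-diabetic saline. Ramp3 had a difference of -0.49 ± 0.39 for diabetic Esm-1 minus diabetic saline (limma, adjusted p = 0.689), and Ramp2 was too low to test, at 1 to 15 reads.

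Over the whole chemokine system, 14 genes other than Ackr2 and Ackr3 could be tested. In diabetic saline against non-diabetic saline 7 rose and 1 fell, with a median log2 difference of 0.93 beside -0.01 over all 8239 tested genes, of which 5.53% were called. The number called was 5 without diabetic saline replicate 1, 4 without its replicate 3, 3 without non-diabetic saline replicate 1 and 4 without its replicate 2. In diabetic Esm-1 against non-diabetic saline 6 rose and 1 fell, with a median of 0.68 beside 0.01 over all tested genes, of which 15.3% were called. Ccl2, Cxcl11, Cxcl13 and Cxcr4 passed the filter only through the diabetic groups, where they were high, and Gpr182 only through the saline groups. Mif and Ccrl2, at 10 or more in 1 and 2 non-diabetic libraries, also needed the diabetic libraries, where they were higher, to pass. These counts and medians are therefore a description. With no filter on low values, 23 genes of the system were tested: 6 rose and 1 fell in diabetic saline, and 7 rose and 1 fell in diabetic Esm-1, both against non-diabetic saline. Of all 12934 rows in that fit, 307 rose and 140 fell in diabetic saline, and 587 rose and 616 fell in diabetic Esm-1. In diabetic Esm-1 against diabetic saline limma called 0 of the 14 and 0 of 8239 genes, with 4 and 899 at an unadjusted p under 0.05. There edgeR also called 0 genes (896 at an unadjusted p under 0.05), and DESeq2 called 30 (646 at an unadjusted p under 0.05), none of them among the 14. Without diabetic saline replicate 1 limma called 52 genes, and without diabetic Esm-1 replicate 1 it called 10. Over all genes, the other counts fell too when 1 library was left out: diabetic Esm-1 against non-diabetic saline had 1260 called genes, but 702 or 623 with diabetic Esm-1 replicate 2 or 3 left out. Diabetic against non-diabetic saline had 456, but 292 with replicate 3 of diabetic saline left out and 295 or 288 with replicate 1 or 2 of non-diabetic saline left out.

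The risers among the remaining chemokines were Cxcl10, Cxcl13 and Cxcl2, and in diabetic Esm-1 also Cxcl16. Cxcl10, another interferon-induced attractant of T cells, averaged 160 ± 14.1 (SD, n = 3) normalized counts in diabetic Esm-1, 241 ± 114 (SD, n = 4) in the diabetic saline group and 25.5 ± 7.79 (SD, n = 3) in non-diabetic saline, 6.25-fold higher in diabetic Esm-1 (limma, adjusted p = 6.62e-06) and 8.60-fold higher in diabetic saline (adjusted p = 1.48e-07) than in non-diabetic saline. Cxcl13, a B cell attractant, had 53 summed reads in diabetic Esm-1 and 7 in non-diabetic saline, a ratio per unit of depth of 7.79 (exact conditional Poisson interval 3.53 to 20.3, limma adjusted p = 0.000701). In diabetic saline it had 89 reads, a ratio of 11.0 to non-diabetic saline (5.14 to 28.2, limma adjusted p = 0.000101). No non-diabetic library reached 10 normalized counts of Cxcl13, and with no filter the limma adjusted p was 0.000364 in diabetic Esm-1 and 3.03e-05 in diabetic saline. Cxcl2, a neutrophil attractant, averaged 257 ± 12.9 (SD, n = 3), 197 ± 40.2 (SD, n = 4) and 114 ± 34.3 (SD, n = 3) in diabetic Esm-1, diabetic saline and non-diabetic saline, and rose by 1.21 ± 0.21 on the log2 scale in diabetic Esm-1 against non-diabetic saline (limma, adjusted p = 0.000558). Its rise in diabetic saline (0.80 ± 0.19, adjusted p = 0.0157 in limma) did not pass with replicate 1 or 3 of diabetic saline left out (adjusted p of 0.0516 or 0.0511) or replicate 1 or 2 of non-diabetic saline (0.0506 or 0.102). Cxcl16, a membrane-bound chemokine and scavenger receptor, averaged 218 ± 28.9 (SD, n = 3) in diabetic Esm-1, 172 ± 10.1 (SD, n = 4) in the diabetic saline group and 139 ± 12.0 (SD, n = 3) in non-diabetic saline. Its rise of 0.64 ± 0.16 in diabetic Esm-1 against non-diabetic saline (limma, adjusted p = 0.00751) did not pass with a common total per library (adjusted p = 0.0634). Cxcl9, chosen after its values were seen and too low to test, had 10, 7 and 9 reads in diabetic Esm-1, 4, 7, 6 and 1 in diabetic saline and none in the 3 non-diabetic libraries.

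Of 18 signalling chemokine receptors only Cxcr4 could be tested, and Cxcr3, which Cxcl10 and Cxcl11 activate, was not analysed here. Cxcr4, the signalling receptor that shares Cxcl12 with Ackr3, had 21.5, 5.72 and 7.18 normalized counts in diabetic Esm-1, 15.2, 26.8, 16.4 and 17.7 in diabetic saline and 6.19, 5.44 and 4.99 in non-diabetic saline. It rose in diabetic saline against non-diabetic saline (log2 1.59, SE 0.40, limma adjusted p = 0.0218). Cxcr4 reached 10 normalized counts in 1 diabetic Esm-1 library, 4 of diabetic saline and none of non-diabetic saline, so it passed the filter only through the group where it was high, and with no filter the limma adjusted p was 0.021. That call ended with replicate 2 of diabetic saline left out (adjusted p = 0.073) or any of the 3 non-diabetic libraries (0.0546, 0.0546 or 0.0592 for replicates 1 to 3). In diabetic Esm-1 the libraries split, with replicate 1 among the diabetic saline values and replicates 2 and 3 near the non-diabetic ones, and diabetic Esm-1 minus diabetic saline was -0.87 ± 0.40 (limma, adjusted p = 0.44).

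**Figure D3:**
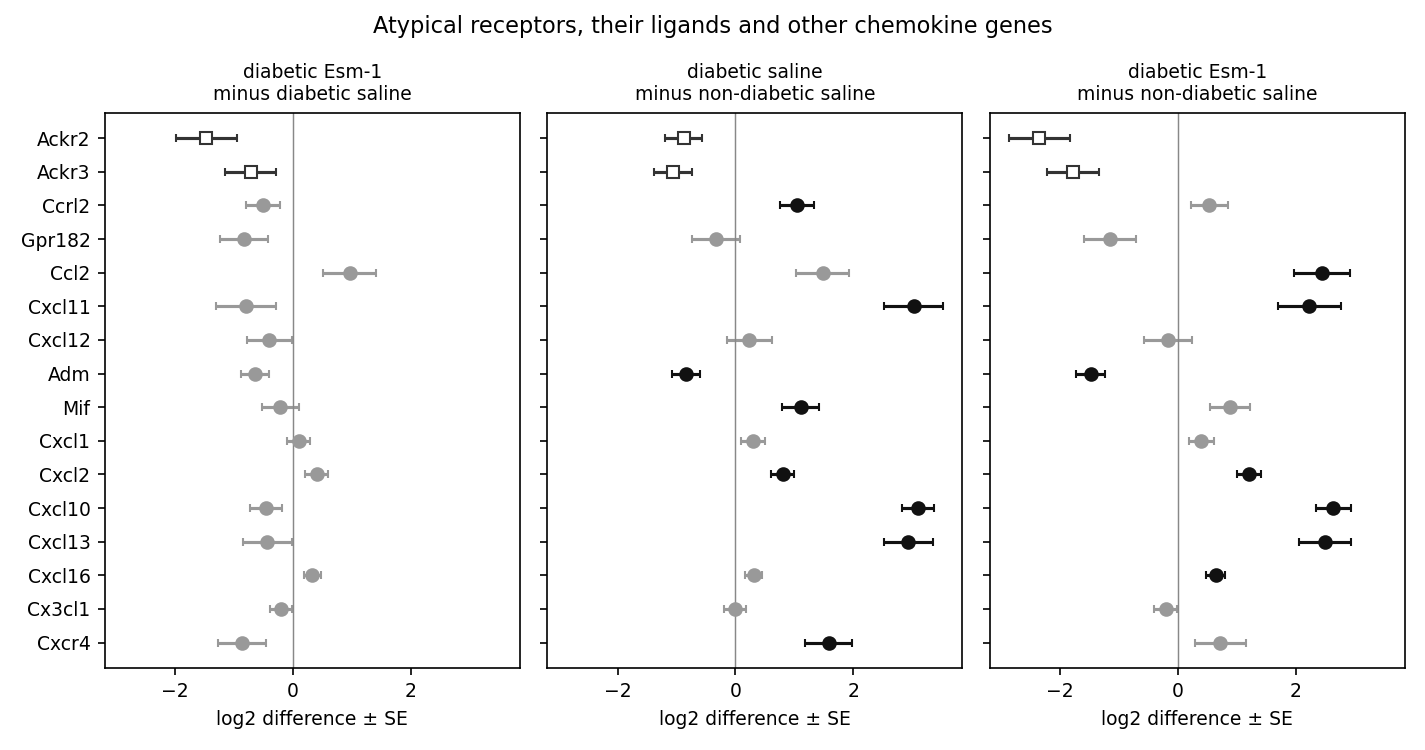
Log2 differences with standard errors for Ackr2 and Ackr3 (open squares, not tested) and for the 14 other tested chemokine system genes (circles, black where limma's adjusted p is under 0.05 and grey otherwise) in the 3 comparisons. Both receptors lie left of 0 in all 3 panels, whereas Cxcl10, Cxcl11 and Cxcl13 lie at 2.23 to 3.10 in the panels against non-diabetic saline.

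Genes that carry the signal and the traffic of atypical receptors were mostly without a call, with exceptions in the signalling arm. In studies of the human receptor, ACKR2 acts through beta-arrestin 1 and a cascade of RAC1, PAK1 and LIMK1 that ends on cofilin. Limk1, the kinase that phosphorylates cofilin, had 7.16, 3.81 and 4.79 normalized counts in diabetic Esm-1, 8.80, 14.8, 7.75 and 12.4 in diabetic saline and 22.9, 29.0 and 33.7 in non-diabetic saline. It was 4.78-fold lower in diabetic Esm-1 than in non-diabetic saline (log2 -2.26, SE 0.37, limma adjusted p = 0.000383) and 2.51-fold lower in diabetic saline (log2 -1.33, SE 0.35, adjusted p = 0.0253). Limk1 reached 10 normalized counts in the 3 non-diabetic libraries and 2 diabetic ones, so it passed the filter only through the group where it was high. With no filter on low values, its limma adjusted p was 0.000245 in diabetic Esm-1 and 0.0305 in diabetic saline, both against non-diabetic saline. Its call in diabetic saline ended with replicate 1 or 3 of that group left out (adjusted p of 0.0682 or 0.0753) or any of the 3 non-diabetic libraries (0.0563, 0.0978 or 0.118 for replicates 1 to 3).

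Pak1, the kinase above Limk1, had 46.2, 21.9 and 13.2 normalized counts in diabetic Esm-1, 39.2, 37.9, 53.4 and 44.3 in diabetic saline and 66.2, 110.6 and 74.8 in non-diabetic saline. It fell 3.33-fold in diabetic Esm-1 against non-diabetic saline (limma, adjusted p = 0.000826), and its difference in diabetic saline was -0.90 ± 0.30 (adjusted p = 0.0794, and 0.0323 in edgeR). Arrb1, which encodes beta-arrestin 1, had 74.2, 81.1 and 69.4 in diabetic Esm-1, 90.4, 128, 109 and 124 in diabetic saline and 144.3, 149.6 and 133 in non-diabetic saline. The 3 groups of Arrb1 did not overlap, as in 1.02% of the 8239 tested genes in this order. Arrb1 fell by 0.92 on the log2 scale in diabetic Esm-1 against non-diabetic saline (SE 0.17, limma adjusted p = 0.00115). Its difference of -0.58 ± 0.16 between diabetic Esm-1 and diabetic saline did not pass (limma, adjusted p = 0.197).

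Grk5, a kinase that marks activated receptors for arrestin, averaged 28.0 ± 8.99 (SD, n = 3), 43.1 ± 5.49 (SD, n = 4) and 56.3 ± 11.2 (SD, n = 3) in diabetic Esm-1, diabetic saline and non-diabetic saline, and fell by 1.01 in diabetic Esm-1 against non-diabetic saline (SE 0.25, limma adjusted p = 0.00776, and 0.0677 without diabetic Esm-1 replicate 3). These 4 were the only genes called among 22 tested in this list when diabetic Esm-1 was set against non-diabetic saline, all lower, with a list median of -0.03 beside 0.01 over all genes, of which 8.11% were called lower. Limk1 was the 1 called in diabetic saline against non-diabetic saline, where 1.81% of all genes were called lower. As Limk1 passed the filter only through non-diabetic saline, these counts are a description. Rac1 and the cofilin gene Cfl1 passed in neither, at -0.24 ± 0.16 and -0.18 ± 0.16 for diabetic Esm-1 minus non-diabetic saline (limma, adjusted p = 0.354 and 0.496). Rab5a, which serves early endosomes, was at -0.52 ± 0.18 for diabetic Esm-1 minus diabetic saline (limma, adjusted p = 0.273). Podocyte and endothelial markers fell in the same comparison as these 4 genes, and their part in it was not tested.

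**Figure D4:**
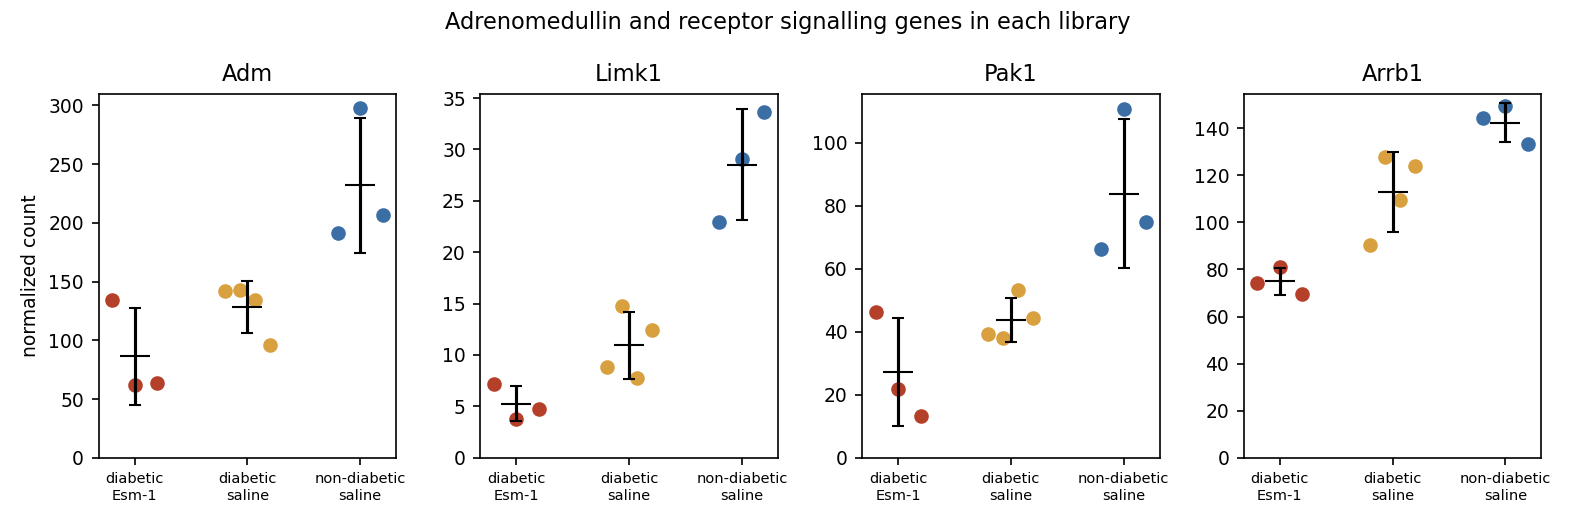
Normalized counts of Adm, Limk1, Pak1 and Arrb1 in each library (points) with the mean and SD of each group (black). Each is lowest on average in diabetic Esm-1 and highest in non-diabetic saline, with the Arrb1 groups at 69.4 to 81.1, 90.4 to 128 and 133 to 149.6.

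The genes whose levels ran most like those of the receptors were sought by Pearson correlation of log2 values over the 10 libraries, among 8222 tested genes with a gene name. The libraries share 3 group means, so these values describe likeness and carry no test. Closest to Ackr2 were Ddn (0.96), which encodes the podocyte protein dendrin, Cep85l (0.95), Rbfox2 (0.94), an RNA splicing factor, Cdr2l (0.94) and Clasp2 (0.93), which binds microtubules. Ddn averaged 15.8, 24.1 and 42.6 normalized counts in diabetic Esm-1, diabetic saline and non-diabetic saline, beside 8.92, 24.9 and 46.3 for Ackr2. Closest to Ackr3 were Golim4 (0.99), Pdgfrb (0.98), Sh2b3 (0.98), an adaptor of cytokine receptor signalling, Prkg1 (0.97), the cGMP-dependent kinase of contractile cells, and Fam129b (0.97). Pdgfrb, the PDGF receptor of mesangial cells, averaged 102 ± 16.2 (SD, n = 3) in diabetic Esm-1, 132 ± 14.5 (SD, n = 4) in the diabetic saline group and 169 ± 16.4 (SD, n = 3) in non-diabetic saline.

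Neither receptor was among the genes closest to the other. Ackr3 ranked at place 340 for Ackr2, and Ackr2 at place 587 for Ackr3, with a coefficient of 0.77. Once the group means were removed this value was 0.14. With group means removed, the genes closest to Ackr2 were Dis3l2, Apaf1, Prpf6, Kif12 and Psmd3, and those closest to Ackr3 were Astn2, Sdcbp, Nrbp1, Trps1 and Top1mt, at 0.92 to 0.98. None of these is among the genes named for all libraries, and the lowest libraries held 4 reads of either receptor.

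By list, the median coefficient with Ackr3 was 0.91 for podocyte markers, 0.88 for endothelial markers and 0.62 for mesangial markers, beside 0.00 over all genes. With Ackr2 it was 0.78, 0.71 and 0.50 in the same order, beside -0.01. Endothelial Plvap (-0.32 with Ackr3, -0.44 with Ackr2) and mesangial Gata3 (-0.38 and -0.18) went against their lists. Parietal epithelial Cldn1 (0.39 and 0.03) also went against its list. Medians with Ackr3 and Ackr2 were -0.63 and -0.52 for parietal epithelial markers and 0.21 and 0.02 for proximal tubule markers. They were 0.35 and 0.19 for lymphatic endothelial markers and -0.69 and -0.61 for the other chemokines. Of 15 interferon-stimulated genes 14 rose in diabetic Esm-1 and 15 in diabetic saline, both against non-diabetic saline, where 7.19% and 3.73% of all tested genes rose. Interferon-stimulated genes had medians of -0.63 with Ackr3 and -0.54 with Ackr2, and their summed level was 1607 to 1883 normalized counts in diabetic Esm-1, 1865 to 2827 in diabetic saline and 311 to 486 in non-diabetic saline. Ligands of Ackr3 had a median coefficient of -0.11 with Ackr3 and -0.26 with Ackr2, with Adm highest at 0.97 and 0.83 and Mif lowest at -0.49 and -0.43. The arrestin, kinase and trafficking genes had a median of 0.24 with Ackr3, with Pak1 highest at 0.91 and Ap2b1, of the clathrin adaptor AP-2, lowest at -0.79. With Ackr2 their median was 0.10, with Limk1 highest at 0.90 and Ap2b1 lowest at -0.64.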

How the data were processed

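Reads were processed with Trimmomatic 0.36, STAR 2.5.3a, the mm9 build, DESeq2 1.28.1 and R 4.0.2; these names come from the submitters' processing notes, with no order given. The counting program, its annotation and strand setting are among steps not given in the sources used here. The deposited signal values are normalized counts. Dividing each library by its smallest value above 0 gave whole reads for 100% of 129340 values (tolerance 0.001), so reads were recovered. No row held fewer than 7 reads over all libraries, and genes below that are not analysed here.

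Values were taken as log2 of the normalized count plus 1. One limma 3.58.1 fit (R 4.3.3, intensity trend, two-sided) over 10 libraries and 3 groups tested 8239 genes, with Benjamini-Hochberg adjusted p under 0.05 as the threshold over all of them. It was also run on simulated counts with the same dispersion (spread beyond counting error) for every gene, which does not check the fit on these libraries. Recovered reads went into edgeR 4.0.16 and DESeq2 1.42.0 as alternatives, and edgeR called 517 genes in diabetic against non-diabetic saline. The differences of Ackr2 and Ackr3 are differences of group means with standard errors. Further alternatives were limma without the trend, library totals made equal (with or without Rn45s, Lars2 and Mir6236), no low-value filter, a pseudocount of 5, a fit of only the 2 groups compared, title numbers under 100 as a term or left out, and each library left out. Libraries held 3931712 to 11300629 reads. Replicate numbers follow the order of the records and pair nothing.

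The members and gene lists were chosen with earlier results of these data known. Named were all genes with values in the lists of atypical receptors and of ligands of Ackr2 and Ackr3, up to 6 called genes per comparison in the other lists (or the 2 with the lowest p), and the 5 genes most like each receptor. Calcrl, Ramp2, Pdpn, Rac1, Cfl1 and Cxcl9 were added after their values were seen. Grk2, Grk3 and Adgre1 were matched through older symbols. Promoters come from RefSeq (GRCm38.p6), another build than the authors', and served for sequence only.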

Additional observations from a re-analysis of the deposited data

Results flagged for a closer look

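Among 25 genes named in the text or its lists, the 4 diabetic saline libraries were screened with Dixon's criterion for a library far from the others, and chance marks about 1 in 20 such groups. Cxcl16 was marked (gap over range 0.854, critical value 0.829), because replicate 2 had 157 normalized counts where the other 3 libraries had 176 to 179. Ccl4 was marked as well (0.864), because replicate 3 had no read and the other 3 libraries had 1 or 2 reads each. Neither Ackr2 nor Ackr3 was marked.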

How the results depend on the processing

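Ackr2 and Ackr3 stayed lower in the first-named group of all 3 comparisons in every alternative run. Relative to the podocyte, endothelial and mesangial markers, chosen after seeing the data, 3 differences moved by more than the spread between libraries: Ackr3 to -0.18 for diabetic Esm-1 minus diabetic saline, and Ackr2 to -1.45 and Ackr3 to -0.87 for diabetic Esm-1 minus non-diabetic saline. Leaving out 1 library gave, for diabetic Esm-1 minus diabetic saline, -1.80 to -1.02 for Ackr2 and -1.05 to -0.41 for Ackr3. For diabetic saline minus non-diabetic saline it gave -1.08 to -0.68 and -1.22 to -0.84, and for diabetic Esm-1 minus non-diabetic saline -2.68 to -1.90 and -2.11 to -1.47. In the Esm-1 comparison DESeq2 called 30 genes where limma called 0, and leaving out 1 library gave 0 to 52. Diabetic against non-diabetic saline had 456 called genes (307 higher, 149 lower), 224 without the intensity trend and 288 to 455 without 1 library, and in the chemokine system 8, 5 and 3 to 7. Diabetic Esm-1 against non-diabetic saline had 1260 (592 higher, 668 lower), 791 without the trend and 623 to 1225 without 1 library, and in the chemokine system 7 and 7 to 8 without 1 library. Among 38 other genes followed, no setting ended or added a call in the Esm-1 comparison. In diabetic against non-diabetic saline 40 gene and setting pairs lost a call, 9 gained one and 593 kept their side, and in diabetic Esm-1 against non-diabetic saline these were 2, 3 and 598. Leaving out the 2 libraries with title numbers under 100, which were also the shallowest, gave adjusted p of 0.108 for Adm, 0.0739 for Cxcr4 and 0.109 for Limk1 in diabetic against non-diabetic saline (limma). The cause was not tested. No paired analysis was possible because the labels give the groups no shared replicate numbers. Depth limits all values of Ackr2 and Ackr3, since 3 reads were worth 1.86 to 5.31 normalized counts and the lowest libraries held 4 reads of either.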
